A study of Rattus norvegicus with 9 samples.

Results

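Fibroblast growth factor 2 (Fgf2, basic FGF) was followed as a single mRNA through 2-colour m6A epitranscriptomic microarrays of rat cortex. It was identified as the one probe whose name begins with A_4 and whose accession, NM_019305, belongs to rat Fgf2 (gene ID 54250), namely A_44_P212850. The choice gave 1 gene among 41186 probes for transcripts. The same class holds 50 probes printed 10 times on each array, and the accessions of 30 of them named a gene. Fgf2 was selected by probe name, number of spots and accession, with no intensity in the rule, but it had been put forward with its IP, Sup and log2(IP/Sup) values in all 3 groups known, so its levels and differences are given as a description, without p-values.

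The arrays held RNA from 9 male Sprague Dawley rats, 1 array per rat, in 3 groups of 3. Control rats, called normal in the labels, had the neck operation without occlusion of the artery, at a day that the labels do not give. Model rats had the left middle cerebral artery closed by a plug for 2 h and then reperfused, with cortex of the ischemic side taken at day 7. The third group had the same injury and received Buyang Huanwu Decoction (BHD), a herbal formula, until day 7, at a dose not given in the sources used here. All rats were bought at 8 weeks of age. From each rat, RNA bound by an anti-m6A antibody (IP) was labelled with Cy5 and the RNA left in the supernatant (Sup) with Cy3. The dyes were not swapped, so that a dye effect of the probe stays in every log2(IP/Sup) but drops out of differences between groups.

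FGF2 is a heparin-binding growth factor that signals through FGF receptors, which are tyrosine kinases, with heparan sulfate as a co-receptor. It acts on endothelial cells, neural progenitors and astrocytes, and it is best known for promoting angiogenesis, neurogenesis and neuron survival. In the brain it is made chiefly by astrocytes and by some neurons, and its production is known to respond to injury. N6-methyladenosine is a reversible mark on mRNA that influences splicing, stability and translation. The share of a transcript that an antibody to the mark pulls down, read here as log2(IP/Sup), serves as its relative m6A level. In the rat gene table (assembly GRCr8, used for names and neighbours only), Fgf2 overlaps Nudt6, a gene known as its antisense partner.

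The probe was well measured. On every one of the 9 arrays, all 10 spots passed the scanner's test against background in the IP and the Sup channel, 0 were saturated and 0 carried an outlier flag. In the control group, the median unnormalized IP intensity of the 10 spots was 434.5, 520.5 and 474.5 on replicates 1, 2 and 3, against a local background of 15 to 15.75. The corresponding Sup intensities were 156, 174 and 147, against a background of 16. In the model group the IP intensities were 411, 292 and 287, and the Sup intensities 163, 190.5 and 203. With BHD they were 530.0, 509 and 442 in the IP channel and 270.5, 249.5 and 267.5 in the Sup channel. Before any normalization, therefore, the Sup intensity of Fgf2 was higher on every BHD array than on any other, while the IP intensity was low on model replicates 2 and 3. Across all transcript probes, the median IP intensity ran from 53 to 83.5 and the median Sup intensity from 48 to 60.0 among the 9 arrays, and these shifts between arrays are what the normalization removes.

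The arrays were not scanned together. By the scan times in the file headers, the 3 control arrays and model replicate 1 were read in scan run 1, model replicates 2 and 3 with BHD replicates 1 and 2 in scan run 2, and BHD replicate 3 alone in scan run 3. Control and BHD arrays never shared a run, so group and run can be separated only through the model arrays.

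The relative m6A level of Fgf2, set against the other probes of each array, was lower in both injured groups than in the control group. The loess step centres every array, so a shift shared by all probes is removed. The paper reports a higher total m6A level in model cortex, which these values cannot show. Whether the methylated share of Fgf2 itself fell cannot be told from them. Log2(IP/Sup) was 0.75, 0.64 and 0.98 on control replicates 1, 2 and 3, with a mean of 0.79 ± 0.18 (SD, n = 3). It was 0.43, 0.25 and 0.40 on the model replicates, with a mean of 0.36 ± 0.09 (SD, n = 3). In the BHD group the values were 0.23, 0.39 and 0.28, with a mean of 0.30 ± 0.08 (SD, n = 3). Every rat of both injured groups lay below the lowest control rat, and the model and BHD values were interleaved. In order, the control group was highest, and the model and BHD groups followed without differing beyond their spread.

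**Figure D1:**
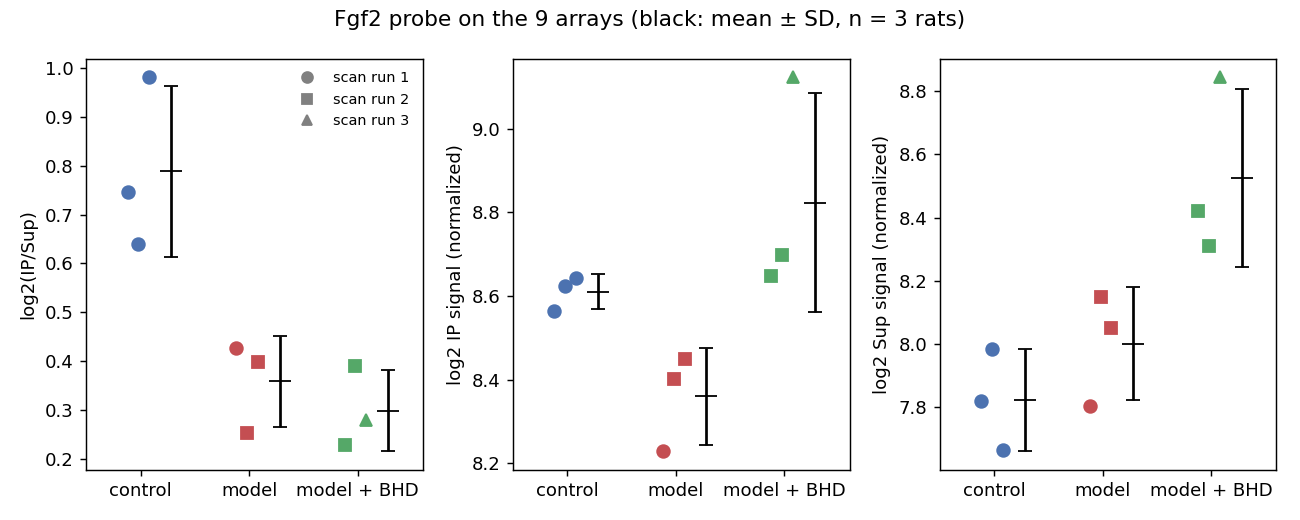
Log2(IP/Sup), normalized log2 IP signal and normalized log2 Sup signal of the Fgf2 probe on each array (points, shape by scan run) with the mean ± SD of each group of 3 rats in black. The left panel shows all 6 injured rats between 0.23 and 0.43, below the control rats at 0.64 to 0.98, and the right panel shows the BHD rats above all others in Sup signal.

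The difference between model and control was −0.43 (standard error 0.11, from the limma fit across all probes), that is, a 1.35-fold lower IP/Sup ratio. Between BHD-treated and control rats it was −0.49 (standard error 0.10), or 1.41-fold. Both comparisons use the same 3 control arrays and are therefore not independent of each other. Neither reached the 1.5-fold change that the study required along with an unadjusted p under 0.05, a rule met by 0.588% of 31640 probes between model and control and by 0.965% of 31909 probes between BHD and control. The groups did not overlap, in either direction, for 8.32% and 11.6% of all probes with complete values in these comparisons. Of all probes tested, 4.32% had a difference between model and control as low as that of Fgf2 or lower, and 0.83% between BHD and control. The median difference over all probes was 0.0066 and −0.0026.

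Since the injured rats did not overlap the control rats, every pair of rats differs in the same direction, and pairs show the range of sizes. Between same-numbered rats, model minus control was −0.32, −0.39 and −0.58 for replicates 1, 2 and 3, and BHD minus control was −0.52, −0.25 and −0.70. Model replicate 1, the one injured array read together with the controls, lay at 0.43, below all 3 of them. With the scan run as a block, which rests on this array alone, the difference between model and control was −0.36 (standard error 0.17). That between BHD and control was then −0.38 (standard error 0.21, against 0.10 without the block), reached only through the model arrays, since no run held both groups. Leaving out each rat in turn, which cannot change the sign of groups that do not overlap, gave −0.51 to −0.33 for model against control and −0.57 to −0.39 for BHD against control.

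BHD-treated and untreated model rats overlapped in log2(IP/Sup), with a difference of −0.06 (standard error 0.10) that was smaller than the SD of either group. Of 32819 probes in this comparison, 2.65% were past the study's thresholds, 16.6% of those with complete values did not overlap, and 33.8% had a difference as low or lower. Between the treated and untreated arrays of scan run 2 it was −0.02 (standard error 0.14).

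The 10 spots of an array repeat the same sample and are not replicates of a group. The SD between spots of an array in log2(IP/Sup) ran from 0.04 on BHD replicate 2 to 0.17 on model replicate 2, with a median of 0.09 over the 9 arrays. Over the 50 probes with 10 spots the median was 0.08. The SD between rats of a group is taken over array means of 10 spots and is not on the same footing as that of single spots. Pooled over the groups it was 0.12 for Fgf2, and its median over the 50 probes was 0.19.

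**Figure D2:**
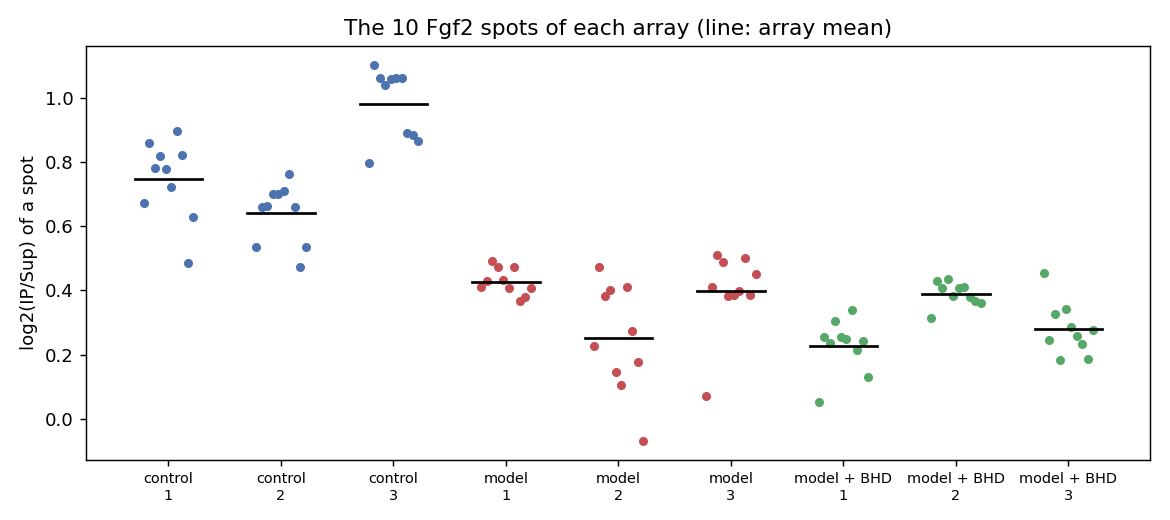
Log2(IP/Sup) of each of the 10 Fgf2 spots on the 9 arrays, ordered by group and replicate, with the array mean as a line. Model replicate 2 has the widest scatter, with an SD of 0.17, and BHD replicate 2 the narrowest, with an SD of 0.04.

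The IP signal, the methylated fraction on its own, was lowest in the model group. After normalization between arrays, the log2 IP signal was 8.56, 8.62 and 8.64 on the control arrays, 8.23, 8.40 and 8.45 on the model arrays, and 8.65, 8.70 and 9.12 on the BHD arrays. The group means were 8.61 ± 0.04, 8.36 ± 0.12 and 8.82 ± 0.26 (SD, n = 3 each). All model rats lay below all control rats, and all BHD rats lay above both groups. BHD replicate 1, at 8.647, and control replicate 3, at 8.644, were nearly level, so that the BHD and control groups barely separated. BHD replicate 3, the array read alone, stood above the other two BHD arrays. In bulk cortex, a difference in the number of cells that make Fgf2 and one in Fgf2 RNA per cell cannot be told apart.

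Model minus control in IP signal was −0.25 (standard error 0.08), a 1.19-fold lower signal. BHD minus model was 0.46 (standard error 0.13), or 1.38-fold higher, and BHD minus control was 0.21 (standard error 0.13). None of these reached 1.5-fold, where 1.35%, 5.02% and 3.59% of all probes met both thresholds. Groups that did not overlap were found for 11.5%, 25.7% and 18.6% of all probes in the same comparisons. Without BHD replicate 3, BHD minus model was 0.31 and BHD minus control was 0.06.

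Scan run touched the IP signal more than the ratio. With the run as a block, model minus control was −0.38 (standard error 0.09) and BHD minus model 0.25 (standard error 0.07), the latter from BHD replicates 1 and 2 against model replicates 2 and 3. BHD minus control turned to −0.13 (standard error 0.10). The order of BHD and control rats in IP signal therefore changed with the block, and no run held both groups.

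The Sup signal, which carries the unmethylated fraction, was highest with BHD. The log2 Sup signal was 7.82, 7.98 and 7.66 on the control arrays and 7.80, 8.15 and 8.05 on the model arrays. On the BHD arrays it was 8.42, 8.31 and 8.84. The means were 7.82 ± 0.16, 8.001 ± 0.18 and 8.52 ± 0.28 (SD, n = 3 each). Control and model rats overlapped, with model replicate 1 among the controls, whereas all BHD rats were above both other groups. In order, BHD was highest, and the model and control groups below it overlapped, with means 0.18 apart.

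BHD minus control in Sup signal was 0.70 (standard error 0.16), a 1.63-fold higher signal and the only one of the 9 Fgf2 differences that met both thresholds of the study, as did 5.92% of 31909 probes in either direction and 2.73% in the higher one. BHD minus model was 0.52 (standard error 0.16), or 1.44-fold, with 2.56% of all probes past the thresholds, and model minus control was 0.18 (standard error 0.12), with 1.27% past them and 12.3% not overlapping. The BHD group did not overlap the control group for 22.9% of probes or the model group for 13.6%. Without BHD replicate 3 the difference from control was 0.54, under 1.5-fold. With the scan run as a block it was 0.25 (standard error 0.18), that of BHD from model 0.26 (standard error 0.12) and that of model from control −0.018 (standard error 0.15). The Sup difference of BHD from control was thus smaller and no longer past the thresholds with the run as a block.

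Side by side, without a block for the scan run, the channels gave the lower ratio of the 2 injured groups in different ways. In the model group the IP signal was lower than in controls by 0.25 on the log2 scale and the Sup signal higher by 0.18, with overlap in Sup. In the BHD group both signals were higher than in controls, the IP signal by 0.21 and the Sup signal by 0.70. Without BHD replicate 3 that IP difference was 0.06. With the scan run as a block, the IP differences from controls were −0.38 for model and −0.13 for BHD. The Sup differences were then −0.018 and 0.25, so the contrast between the 2 groups depended on the block. The ratio is the difference of the IP and Sup signals on each array, and both comparisons share the control arrays.

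Other members of the FGF pathway could not be followed. Of 71 listed genes, which cover ligands, binding proteins, receptors, co-receptors, signal carriers, feedback inhibitors and a few other growth factors, 1, Fgf2 itself, was named by a probe accession. The other growth factor among the 30 named probes, Gdnf, which supports dopaminergic and motor neurons, was well above background in either channel on 1 of 9 arrays, and no level is given for it. It was singled out after its values had been seen.

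Against the other named probes with 10 spots, Fgf2 stood at the low end for the ratio. Among the 26 named genes tested between model and control, the difference in log2(IP/Sup) extended from −0.91 for Ppp2r2b, a regulatory subunit of protein phosphatase 2A, to 0.40 for Ldha, a subunit of lactate dehydrogenase. Fgf2 was the 6th lowest of them, and 3 of the 26, Fgf2, Enpp1 and Napepld, were lower without overlap, against 3.92% of all probes. Between BHD and control, Fgf2 had the lowest of the 27 changes, which reached 0.24 at the other end, and was one of 4 genes lower without overlap, along with Ndfip1, Map2 and Trim2, against 5.67% of all probes. In Sup signal, BHD minus control was higher only for Slc28a2 among the 27. Of these, 7 with Fgf2 were higher without overlap and 1 lower, against 22.9% of all probes in either direction. For BHD minus model, the 28 named genes had a median of 0.20 in Sup signal and 0.19 in IP signal. In Sup signal 8 of them were higher without overlap and 0 lower, against 13.6% of all probes. In IP signal 10 were higher and 0 lower, against 25.7%. Fgf2 was among the higher ones each time.

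**Figure D3:**
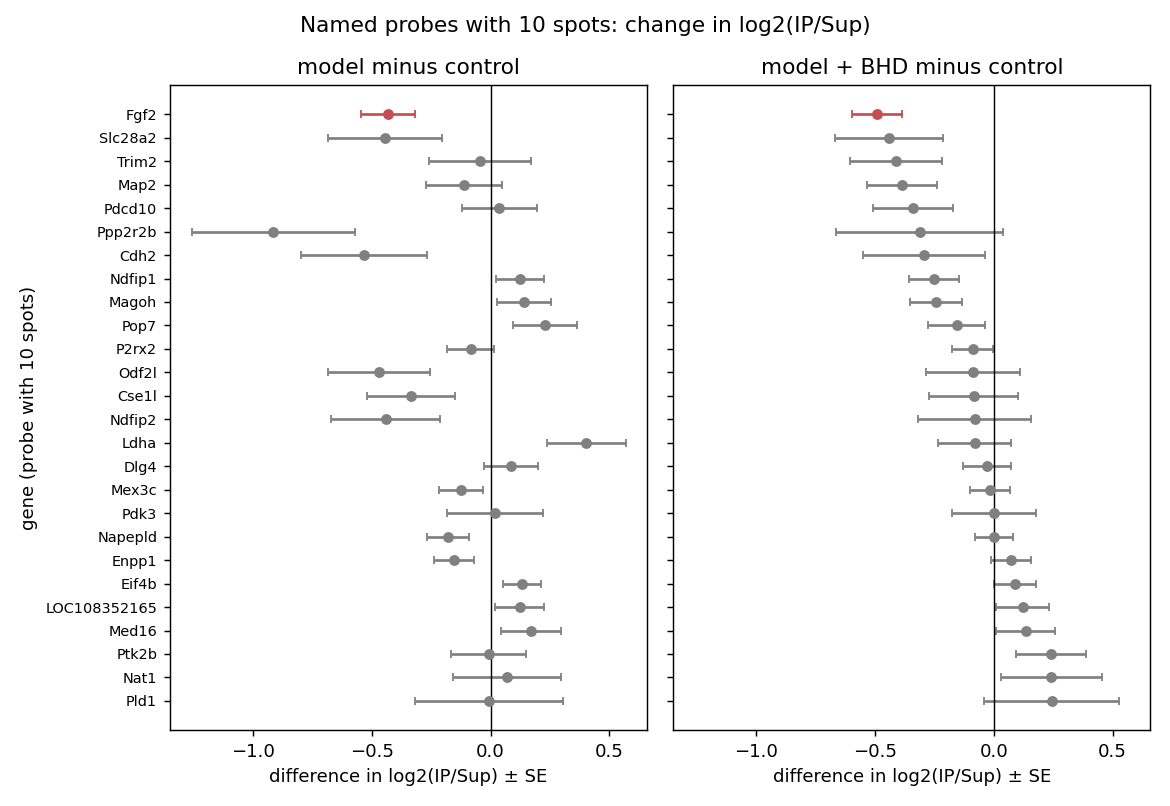
Change in log2(IP/Sup) from control (points, ± standard error of the limma fit) for the 26 named genes tested in both comparisons, model on the left and BHD-treated model on the right, in the order of the right panel. Fgf2, in red, lies at −0.43 and −0.49, the lowest point of the right panel, and Ppp2r2b is the lowest of the left panel at −0.91.

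The genes whose pattern over the 9 arrays was most like that of Fgf2 were sought among the named probes with 10 spots. Coefficients are a description over arrays that share groups, scan runs and normalization. For log2(IP/Sup), the highest Pearson r was 0.68 for P2rx2, a subunit of ATP-gated ion channels, followed by 0.67 for Slc28a2, a nucleoside transporter, and 0.48 for Odf2l. P2rx2 was well above background in both channels on 1 of 9 arrays and ranged from 0.02 to 0.30, so that its match rests on small differences of a dim probe. Slc28a2 was above background in both channels throughout and, like Fgf2, was higher in all control rats than in model replicates 2 and 3, but model replicate 1, at 0.90, and BHD replicate 2, at 0.74, lay among its controls, at 0.69 to 1.04.

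For the IP signal the most similar genes were Enpp1, an ectoenzyme that releases pyrophosphate from nucleotides (r = 0.80), Med16, a Mediator subunit (r = 0.77), and Mex3c, an RNA-binding ubiquitin ligase (r = 0.77). Enpp1 and Mex3c were well above background in both channels on 6 and 7 of 9 arrays, and the IP signal of Enpp1 was 7.22 and 7.34 on BHD replicates 2 and 3 against 6.40 to 6.69 on the other arrays. Spearman's rho for Med16 was 0.28, and its IP signal stood apart on BHD replicate 3 alone, at 7.19 against 6.70 to 6.81 on the other arrays. For the Sup signal they were Slc28a2 (r = 0.87), Nat1, an arylamine N-acetyltransferase (r = 0.84), and Enpp1 (r = 0.83). Nat1 was well above background in both channels on 5 of 9 arrays, with a Sup signal of 6.25 to 6.27 in all controls. The Sup signal of Enpp1 was 6.73 and 7.02 on BHD replicates 2 and 3 and 6.27 to 6.41 on the other arrays. The Sup signal of Slc28a2 was 7.07 to 7.31 in controls, 7.65 to 8.05 in the model group and 8.15 to 8.89 with BHD, a graded order without overlap that Fgf2 shared only in its BHD group.

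The tissue could be checked against few markers. Of 8 listed neuronal markers, Map2, a dendritic microtubule protein, and Dlg4, the postsynaptic scaffold PSD-95, were named on the array, while 0 of 7 astrocyte, 0 of 6 microglial, 0 of 4 endothelial and 0 of 4 oligodendrocyte markers were. Both were detected in the IP and the Sup channel of each array. The IP signal of Map2 differed from that of controls by −0.37 (standard error 0.14) in the model group and by −0.73 (standard error 0.16) with BHD, the latter past the thresholds, and its Sup signal by −0.25 (standard error 0.19) and −0.35 (standard error 0.17). For Dlg4 the IP differences were −0.24 and −0.29, and the Sup differences −0.33 and −0.26, with standard errors of 0.20 to 0.26 and none past the thresholds. For Fgf2, the corresponding IP differences were −0.25 and 0.21 and the Sup differences 0.18 and 0.70. The part of the neuronal markers in the Fgf2 values, and that of astrocytes, whose markers carry no name here, was not tested.

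**Figure D4:**
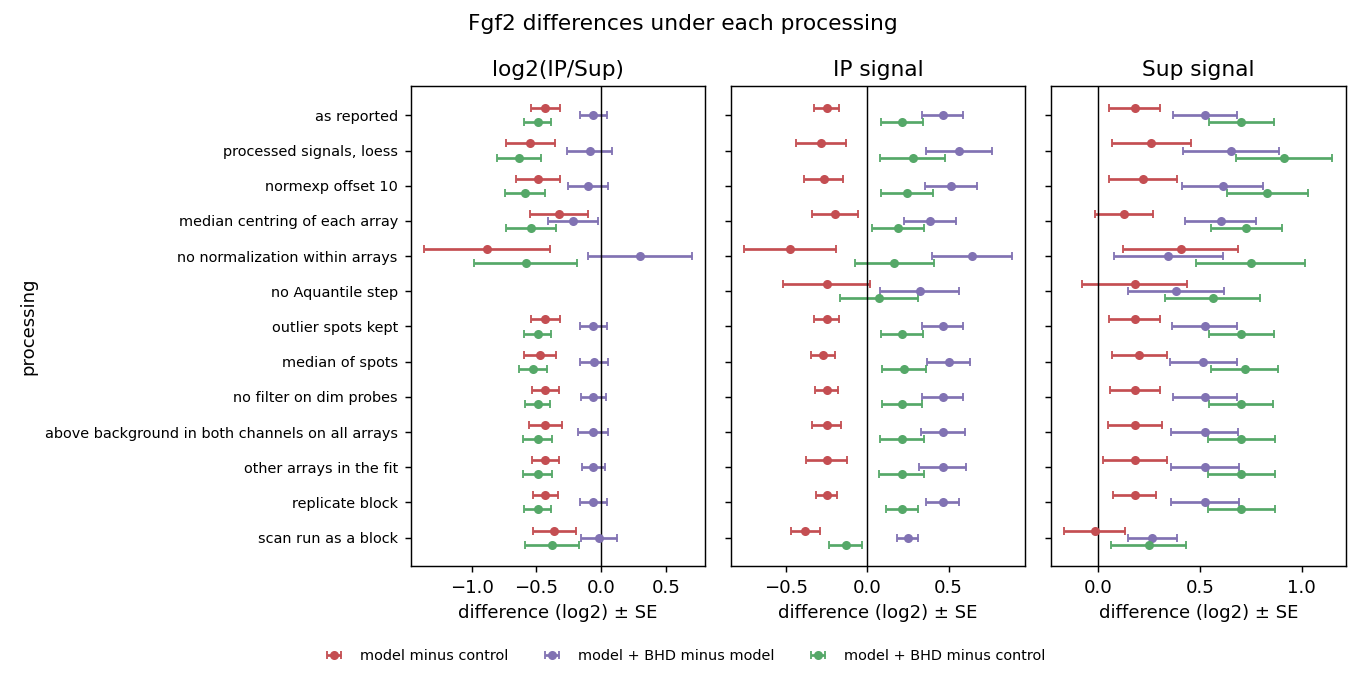
Fgf2 differences (points, ± standard error of the limma fit) between the groups in log2(IP/Sup), IP signal and Sup signal under each processing, as listed on the left, with the processing used in the text on top. The ratio of both injured groups to controls stays below 0 throughout, and with the scan run as a block, BHD minus control turns to −0.13 in IP signal and drops to 0.25 in Sup signal. Kept outlier spots, the filters, other arrays in the fit and the replicate block cannot move the Fgf2 points, only their standard errors.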

How the data were processed

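The authors hybridized IP and Sup RNA of each rat to 1 Arraystar array. They deposited the scanner's text output (Agilent Feature Extraction 11.0.1.1), with a median foreground and background intensity for each spot before normalization, and processed intensities that the software had already adjusted for background and dye. The deposited table of normalized log2 signals has 32860 rows, 0 of them for probes of this class, and was not used. Median intensities were corrected by normexp (offset 50), control spots were given no weight, arrays were normalized by loess, flagged outliers were dropped, and each probe took the mean of its spots. The single-channel signals were taken after Aquantile normalization. The fit kept probes that stood well above background, in either channel, on 3 or more of the 6 arrays of a comparison and that had values on 2 or more arrays of each group. Limma 3.58.1 (R 4.3.3, with the data.table package, version 1.17.8) was fitted to 6 arrays for model against control and to all 9 otherwise. Python 3.11.15, pandas 2.3.3 and matplotlib 3.10.9 drew the figures. The fits were tested on simulated data.

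For same-numbered arrays, the correlation between deviations from the group means (over probes) was 0.43, 0.13 and 0.31 for control and model, 0.38, 0.30 and 0.16 for control and BHD, and 0.58, 0.03 and 0.24 for model and BHD. Each was treated as a possible pairing in an alternative fit with a replicate block, although no source says what a number shares. The member, the lists and the alternatives were chosen with earlier results of these data known. The genes named are Fgf2, listed FGF pathway genes named by an accession, and the 3 named genes most like Fgf2 in each measure, and others only where a comparison or marker list needs them. The number of arrays limits the precision.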

Additional observations from a re-analysis of the deposited data

How the results depend on the processing

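The alternatives covered background correction, normalization, the averaging of spots, the filter, which arrays were fitted together, replicate or scan-run blocks, and each rat left out; the deposited table could not be used, since it has no row for Fgf2. Kept outlier spots, filters, other arrays in the fit and the replicate block can move only the standard errors of Fgf2. Under the other processings, the Fgf2 ratio was lower in both injured groups than in controls. The difference ran from −0.88 to −0.32 for model and from −0.64 to −0.38 for BHD. For BHD against control it was −0.64 with the processed signals and −0.59 with a normexp offset of 10, past both thresholds. With unnormalized arrays, the ratio of the median probe itself moved, by −0.56 for model against control and by 0.51 for BHD against model. The Fgf2 values there were −0.88 and 0.30 for the ratio, −0.48 for the IP signal and 0.40 for the Sup signal of model against control, and relative to that median probe the ratio differences were −0.32 and −0.21. With median centring, BHD minus model was −0.22. With the scan run as a block, the IP differences were −0.38 (model minus control), 0.25 (BHD minus model) and −0.13 (BHD minus control), and the Sup differences −0.018, 0.26 and 0.25; the cause was not tested. The replicate block left the call of each Fgf2 difference as it was, with a standard error of 0.09 for the ratio of model to control (−0.43). It moved the number of all probes past the thresholds in that comparison from 186 to 802 and for BHD against model from 870 to 1330. The Sup difference of BHD from control stayed past the thresholds under 10 of 12 alternatives, the exceptions being the scan run as a block (0.25) and no Aquantile step (0.56).

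Leaving out each rat in turn gave −0.51 to −0.33, −0.11 to −0.02 and −0.57 to −0.39 for the ratio of model to control, BHD to model and BHD to control. For the IP signal the ranges were −0.30 to −0.19, 0.31 to 0.55 and 0.06 to 0.30, and for the Sup signal 0.10 to 0.28, 0.36 to 0.63 and 0.54 to 0.81. The Sup difference of BHD from model passed the thresholds without model replicate 2 (0.60) or BHD replicate 2 (0.63), and also with the processed signals (0.65), an offset of 10 (0.61) or median centring (0.60). That in IP signal did so with unnormalized arrays (0.64). The number of all probes past the thresholds for the ratio of model to control ran from 0 with adjusted p to 1726 without model replicate 1, for BHD to model from 0 to 3517 and for BHD to control from 0 to 1605.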
